A study of Mus musculus with 6 samples.

Results

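The genes examined here receive the Hedgehog signal or carry it to transcription. They are the receptor gene Ptch1, the decoy receptor gene Hhip, the co-receptor genes Gas1, Cdon and Boc, the signal transducer gene Smo and the transcription factor genes Gli1, Gli2 and Gli3. These 9 members were taken by gene symbol from a table of 19679 symbols, and all 9 were found, each with 1 transcript. The values come from RNA sequencing of osteoblasts of the mandible, labelled Md-OB, and of the tibia, labelled Tb-OB, with 3 libraries per site. Both groups came from mice at postnatal day 9 with the transgene Col1a1*2,3-GFP, in which a piece of the type I collagen promoter drives a green fluorescent protein in osteoblasts, so cells were chosen by the activity of that promoter. The fluorescent cells were sorted after collagenase digestion of the bone. Each preparation pooled about 50 mice, and between 2 and 8 ng of RNA per preparation was amplified before sequencing. Libraries of both sites under 1 number are taken here as 1 dissection, which gives 3 dissections. The series asks how osteoblasts of the jaw differ from those of a limb bone.

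Hedgehog proteins are secreted, lipid-modified ligands. In their absence Ptch1 holds Smo inactive and Gli3 is cut to a repressor of transcription. Ligand binding to Ptch1, helped by the co-receptors Gas1, Cdon and Boc, frees Smo to act in the primary cilium, and Gli2 and Gli1 then activate target genes. Ptch1, Hhip and Gli1 are themselves targets, so their transcripts are commonly read as a measure of pathway activity. In long bones the ligand is Indian hedgehog from growth plate cartilage, which is needed for osteoblasts to form, and in the jaw Sonic hedgehog from tooth and oral epithelium acts on the mesenchyme beneath.

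The unit RPKM is the number of reads per kilobase of transcript, scaled to the mapped reads of the library. By the step size of low values, 1 RPKM stood for 49.2 to 58.1 reads per kilobase in these libraries. The sparsest member value, Hhip in tibia library 1, then rested on 9.0 reads per kilobase of transcript. Both libraries of dissection 3 stood apart from the other 4. Across genes, a library of dissection 3 and a library of the other site with another number had deviations from their site means that correlated between -0.71 and -0.64, against 0.80 for both libraries of dissection 3. Osteoblast markers were present in every library, with Runx2 between 13.2 and 15.0 RPKM and Col1a1 between 5570 and 26200 RPKM. The median log2 difference over all 12752 genes tested was 0.12 toward the mandible and -0.01 after quantile normalization, so a member at 0.12 is level with the typical gene.

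Upstream sequence of Ptch1, Gli3 and Hhip is shown because the first pair are the members that passed a test between sites and Hhip is the other receptor that the pathway induces. The sequences are the 250 bases before the start of each gene in the RefSeq-derived table for GRCm38.p6, written 5′ to 3′ on the strand of the gene with GC boxes (GGGCGG on either strand) in capitals. Ptch1 is from chr13:63565736-63565985, minus strand, Gli3 from chr13:15463473-15463722, plus strand, and Hhip from chr8:80058009-80058258, minus strand. The Ptch1 stretch lies before a start used by shorter transcripts and inside an intron of the longer ones, and the Gli3 stretch overlaps an exon of Gm6556 on the other strand.
Ptch1: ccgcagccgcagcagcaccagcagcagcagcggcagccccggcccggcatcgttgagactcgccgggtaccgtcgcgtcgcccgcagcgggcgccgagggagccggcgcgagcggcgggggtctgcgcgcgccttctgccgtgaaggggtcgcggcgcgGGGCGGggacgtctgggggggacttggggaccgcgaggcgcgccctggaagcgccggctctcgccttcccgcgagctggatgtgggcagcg
Gli3: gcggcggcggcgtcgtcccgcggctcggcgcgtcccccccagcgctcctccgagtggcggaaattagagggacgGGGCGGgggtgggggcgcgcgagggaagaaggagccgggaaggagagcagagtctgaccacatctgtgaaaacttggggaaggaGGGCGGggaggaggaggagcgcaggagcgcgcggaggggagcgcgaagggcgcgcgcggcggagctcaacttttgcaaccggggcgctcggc
Hhip: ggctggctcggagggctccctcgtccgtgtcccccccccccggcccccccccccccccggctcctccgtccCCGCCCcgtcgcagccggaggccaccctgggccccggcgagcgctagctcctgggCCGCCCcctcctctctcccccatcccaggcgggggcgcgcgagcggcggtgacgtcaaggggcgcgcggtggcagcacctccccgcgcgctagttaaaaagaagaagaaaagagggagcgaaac
All 3 are rich in CpG. Over windows of 300 bases that also hold the 50 bases after the start, Ptch1 had 47 CpG, Gli3 39 and Hhip 30, against a median of 7 over 32851 windows. In the 7 members with a window, GGGCGG was found in 5, against 35.7% of all windows. The windows of Cdon and Gli2, like that of Ptch1, lie wholly inside the span given for the gene below. The letters TGGGTGGTC, a motif bound by Gli proteins, were on neither strand of the 7 windows, against 0.253% of all windows, and the shorter TGGGTGG within it was likewise in none, against 9.3% of all windows. No window was given for Gli1 and Boc.

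Ptch1 and Gli3 were higher in the mandible in each of the 3 dissections, and Boc, Gas1 and Gli2 differed more between dissections than between sites. No member passed the test on site alone (limma, adjusted p under 0.05 over all genes), where 0.972% of the 12752 genes tested passed in either direction, 0.87% as higher and 0.102% as lower in the mandible. At an unadjusted p under 0.05 there were 2 members, Ptch1 and Gli3, against 8.99% of all genes, or 6.87% as higher. With the dissection as a block, which compares the sites within each dissection, the same pair passed, both higher in the mandible, where 6.49% of all genes passed, 4.44% as higher and 2.05% as lower. The median log2 difference of the 9 members was 0.29, against 0.12 over all genes, and 8 of the 9 lay above 0, as did 67.8% of all genes. Smo and Gli3 were the 2 members whose mandible libraries all lay above all tibia libraries, a pattern seen in 12.6% of all genes. Ptch1, Hhip, Gas1, Smo and Gli3 were higher in the mandible in every dissection, as were 36.8% of all genes, and Boc was lower in every dissection, as were 13.4%. In bulk samples, fewer cells with a transcript and less RNA per cell cannot be told apart.

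**Figure D1:**
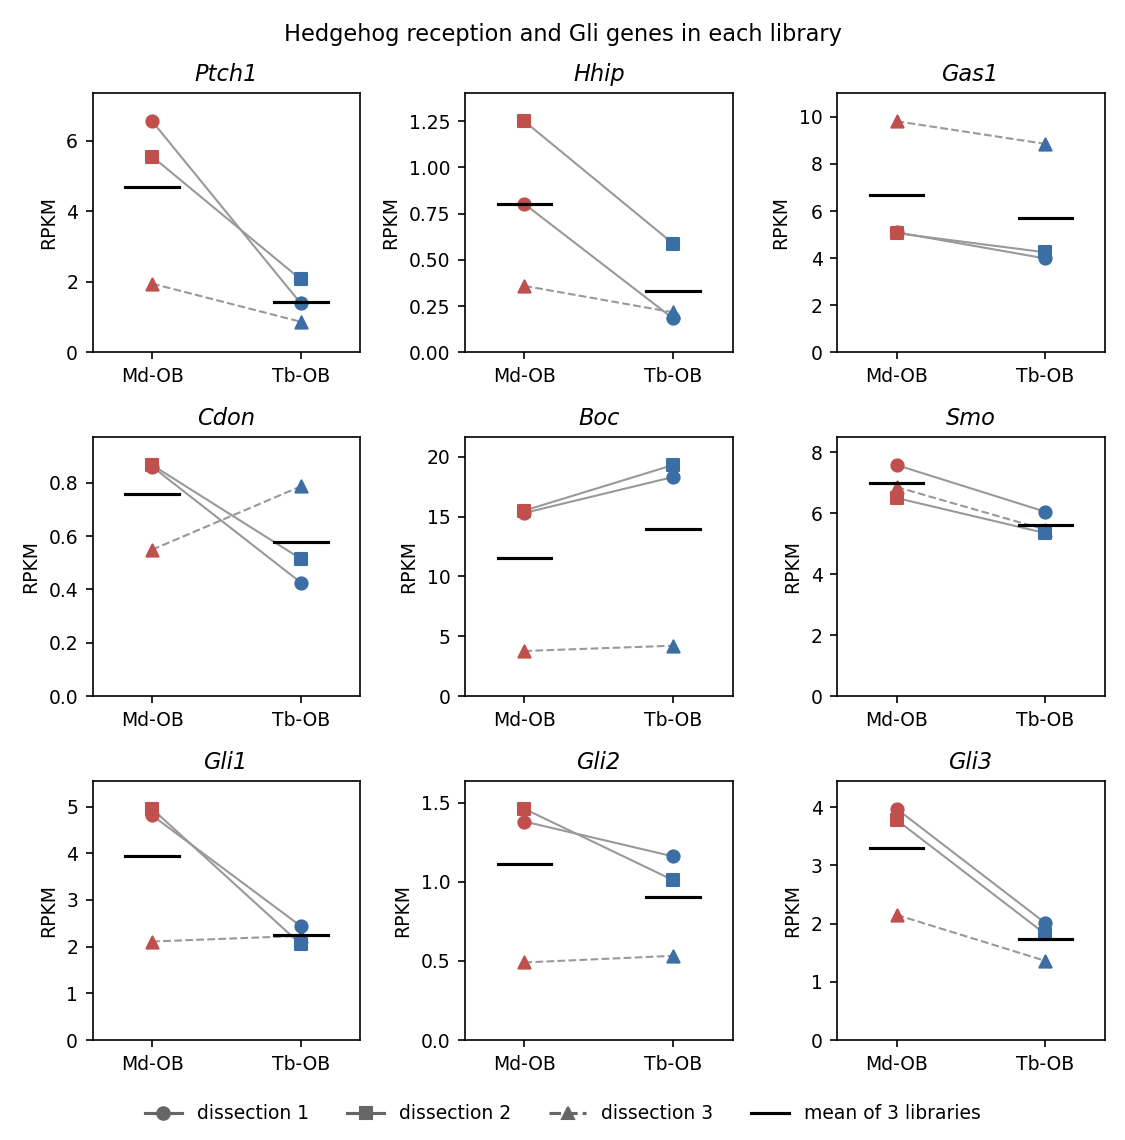
RPKM of each member in every library, mandible (Md-OB) left and tibia (Tb-OB) right, with lines joining the libraries of a dissection and bars for the mean of 3 libraries. Ptch1, Hhip, Gas1, Smo and Gli3 lie higher in the mandible in all 3 dissections and Boc lower, while dissection 3 (triangles) is lowest at both sites for Ptch1, Boc, Gli2 and Gli3 and highest at both sites for Gas1.

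Ptch1 encodes the Hedgehog receptor, and in GRCm38 the gene lies on chromosome 13 at 63508328 to 63573460. It stood at 6.55, 5.55 and 1.95 RPKM in mandible libraries 1, 2 and 3, against 1.39, 2.07 and 0.869 RPKM in tibia libraries 1, 2 and 3. Mandible library 3 was far below its 2 fellows and just under tibia library 2, so the groups overlapped, yet within every dissection the mandible was higher. Means were 4.68 ± 2.42 RPKM in the mandible and 1.44 ± 0.602 RPKM in the tibia (SD, n = 3 each). On the log2(RPKM + 0.5) scale the difference was 1.32 (SE 0.44, or 2.5-fold), with limma adjusted p = 0.425 on site alone and 0.0225 with the block (SE 0.22). By dissection it came to 1.90, 1.24 and 0.84. Without both libraries of dissection 3 it was 1.57 and passed on site alone (adjusted p = 0.0106), while with the block it passed without dissection 1 (adjusted p = 0.0480) and did not without dissection 2 (1.37, adjusted p = 0.102).

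Hhip encodes a membrane protein that binds Hedgehog ligands and keeps them from Ptch1 (chromosome 8, 79965850 to 80058060). It was low everywhere, at 0.803, 1.25 and 0.360 RPKM in the mandible and 0.184, 0.589 and 0.217 RPKM in the tibia. The groups overlapped, with mandible library 3 below tibia library 2, but each dissection had more Hhip in the mandible. Its mean was 0.803 RPKM in the mandible and 0.330 RPKM in the tibia. The tibia mean lay under the filter of 0.5 RPKM, so Hhip was tested through its mandible values. The log2 difference of 0.62 (SE 0.32) did not pass, with adjusted p = 0.675 on site alone and 0.107 with the block. It may understate the change, since values this low are drawn toward 0 by the pseudocount. With a pseudocount of 0.1 the difference was 1.06 and with 1 it was 0.42, and after quantile normalization it was 0.45.

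Of the co-receptor genes, Boc was the most abundant member and Cdon among the least. Boc, an immunoglobulin-family surface protein (chromosome 16, 44485045 to 44558870), stood at 15.3, 15.5 and 3.78 RPKM in the mandible, against 18.3, 19.3 and 4.22 RPKM in the tibia. Dissection 3 held less than any other library at either site, and within each dissection the mandible was slightly lower. That gap was narrow, with a log2 difference of -0.23 (SE 0.73, adjusted p = 0.976; SE 0.11 and adjusted p = 0.243 with the block), and its interval with the block ran from -0.50 to 0.04. Without mandible library 3 the difference was 0.40, and without tibia library 1 or 2 it was 0.09 and 0.12.

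Gas1, a co-receptor tethered to the membrane by a lipid anchor (chromosome 13, 60174405 to 60177535), ran the other way across dissections. It measured 5.10, 5.06 and 9.81 RPKM in mandible libraries 1, 2 and 3 and 3.99, 4.25 and 8.85 RPKM in tibia libraries 1, 2 and 3. Both libraries of dissection 3 were the highest, and the mandible was higher in each dissection by 0.32, 0.23 and 0.14 on the log2 scale. The fitted difference of 0.23 (SE 0.38) did not pass (adjusted p = 0.960, and 0.281 with the block), and it was -0.07 without mandible library 3. The ratio of Boc to Gas1 in RPKM was 3.00, 3.07 and 0.385 in the mandible and 4.6, 4.56 and 0.477 in the tibia. In dissections 1 and 2 Boc was thus several times the level of Gas1 at both sites, and in dissection 3 Gas1 was above Boc at both sites.

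Cdon, close kin of Boc (chromosome 9, 35421528 to 35507652), was at 0.860, 0.866 and 0.549 RPKM in the mandible and 0.426, 0.515 and 0.786 RPKM in the tibia. It was higher in the mandible in dissections 1 and 2 and lower in dissection 3. The log2 difference was 0.23 (SE 0.21, adjusted p = 0.898), with an interval from -0.27 to 0.73. It moved with single libraries, to 0.36 without mandible library 3, 0.37 without tibia library 3 and 0.13 without tibia library 1, and was 0.49 without both libraries of dissection 3 (adjusted p = 0.150).

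Smo, the membrane protein that Ptch1 restrains (chromosome 6, 29735497 to 29761366), was the steadiest member. It stood at 7.58, 6.50 and 6.86 RPKM in the mandible, against 6.05, 5.35 and 5.46 RPKM in the tibia. The groups did not overlap, and at both sites dissection 3 lay between dissections 1 and 2. The mandible was higher by 0.30, 0.26 and 0.30 in dissections 1, 2 and 3, with a fitted log2 difference of 0.29 (SE 0.16) that did not pass (adjusted p = 0.729, and 0.181 with the block). After quantile normalization it was 0.18.

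Gli1, an activator that is itself induced by the pathway (chromosome 10, 127329882 to 127341579), stood at 4.81, 4.95 and 2.11 RPKM in the mandible, against 2.44, 2.05 and 2.23 RPKM in the tibia. The tibia libraries lay close together, and mandible libraries 1 and 2 were above all of them, whereas mandible library 3 fell among them. By dissection the log2 difference was 0.85, 1.09 and -0.07. The fitted difference of 0.62 (SE 0.31) did not pass (adjusted p = 0.661, and 0.160 with the block). Without both libraries of dissection 3 it was 0.97 and passed on site alone (adjusted p = 0.0207), while with the block it was 0.51 without dissection 1 (adjusted p = 0.354) and 0.39 without dissection 2 (adjusted p = 0.543). Leaving out mandible library 3 alone gave 0.97 (adjusted p = 0.0877). Whether the site difference itself varies with dissection was not tested, as each dissection has 1 library per site.

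Gli3, the main source of the Gli repressor (chromosome 13, 15463723 to 15730026), did not overlap between sites. It was at 3.97, 3.78 and 2.15 RPKM in the mandible and 2.01, 1.82 and 1.36 RPKM in the tibia, so that even the lowest mandible library was above every tibia library. Means were 3.30 ± 1.0 RPKM in the mandible and 1.73 ± 0.338 RPKM in the tibia (SD, n = 3 each). The log2 difference was 0.74 (SE 0.26, or 1.67-fold), with adjusted p = 0.449 on site alone and 0.0392 with the block (SE 0.15). With the block it just missed the threshold after quantile normalization (0.63, adjusted p = 0.0531), and it did not pass without dissection 1 (adjusted p = 0.135) or 2 (adjusted p = 0.226).

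Gli2, the main activator in many tissues (chromosome 1, 118834061 to 119054405), was lower than both relatives in every library. It measured 1.38, 1.46 and 0.490 RPKM in the mandible, against 1.16, 1.01 and 0.532 RPKM in the tibia. The groups overlapped and both libraries of dissection 3 were lowest. Its log2 difference was 0.16 (SE 0.33, adjusted p = 0.967), and it was -0.01 without mandible library 2 and -0.04 without tibia library 3. The ratio of Gli1 to Gli3 in RPKM was 1.21, 1.31 and 0.981 in the mandible and 1.21, 1.13 and 1.65 in the tibia, so Gli1 was above Gli3 in every library except mandible library 3.

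**Figure D2:**
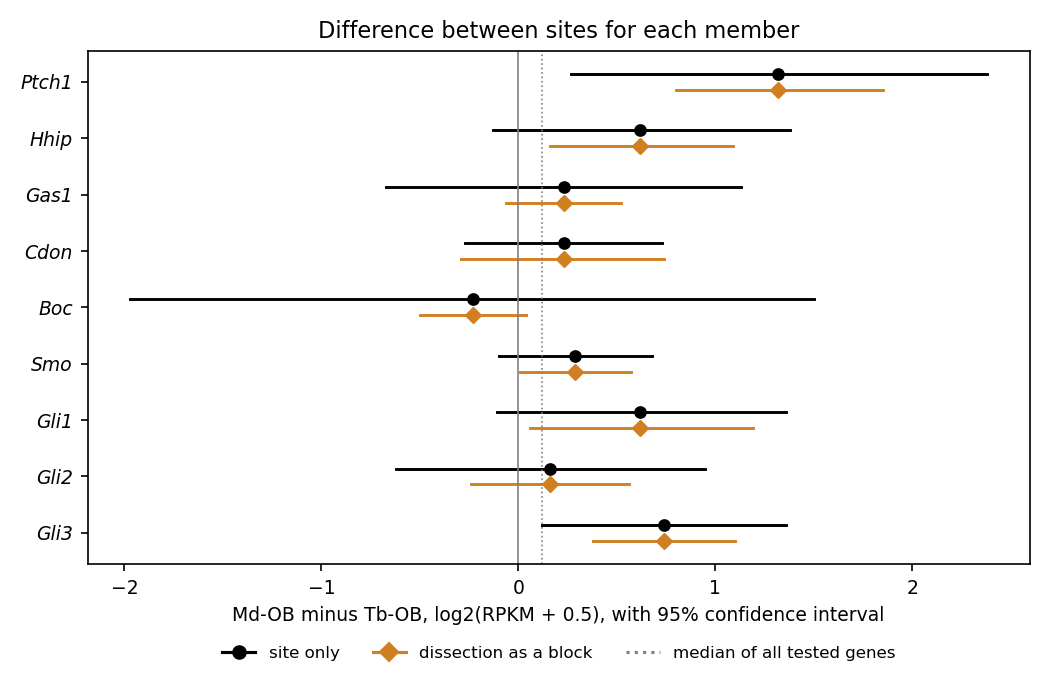
Difference between mandible and tibia for each member on the log2(RPKM + 0.5) scale, with 95% confidence intervals from the fit on site alone (circles) and with the dissection as a block (diamonds). The estimates are the same in both fits, the block narrows the interval of Boc most, and the intervals of Ptch1 and Gli3 lie above 0 in both. Those of Hhip, Smo and Gli1 lie above 0 with the block only. Intervals are not adjusted for the number of genes, and 3373 of 12752 genes had an unadjusted limma p under 0.05 with the block.

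Ranked by mean RPKM in the mandible, the order was Boc, Smo, Gas1, Ptch1, Gli1, Gli3, Gli2, Hhip and Cdon, from 11.5 to 0.758 RPKM. In the tibia it was Boc, Gas1, Smo, Gli1, Gli3, Ptch1, Gli2, Cdon and Hhip, from 14 to 0.330 RPKM. Ptch1 was thus the fourth in the mandible and the sixth in the tibia. Most neighbours in these orders had overlapping ranges over the libraries of a site. In the mandible the ranges were apart only between Gli3 and Gli2, and in the tibia only between Smo and Gli1 and between Gli1 and Gli3. Compared within each library, Gli2 was also above Hhip in all 3 mandible libraries, and Ptch1 above Gli2 in all 3 tibia libraries. Against all tested genes, the mean of Boc was above 71.4% of genes in the mandible and 77.0% in the tibia, that of Ptch1 above 49.5% and 20.8%, and that of Hhip above 7.3% and 1.0%. Set against the transducer it restrains, Ptch1 over Smo in RPKM came to 0.863, 0.854 and 0.284 in the mandible and 0.230, 0.387 and 0.159 in the tibia.

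In dissection 3, 7 of the 9 members had a shift below 0 at both sites, as did 33.4% of all genes. That count takes in Gli1, whose shift was -1.05 in the mandible and nil in the tibia (-0.00), and Smo, at -0.03 and -0.05. For Ptch1, Boc, Gli2 and Gli3 library 3 was the lowest of its site at both sites, as it was for 27.3% of all genes. Boc shifted most, by -1.90 in the mandible and -2.04 in the tibia relative to the mean of dissections 1 and 2 (log2), and 0.4% of all genes shifted as far down at both sites. Ptch1 shifted by -1.42 and -0.69, and Gli2 by -0.95 and -0.62. Gas1 was the 1 member to shift up at both sites, by 0.89 in the mandible and 1.02 in the tibia, as 46.4% of all genes did. Some osteoblast markers were lower in the same libraries, while Bglap, the osteocalcin gene, was highest there, at 28200 RPKM in the mandible and 39000 RPKM in the tibia. Col1a1, the main bone collagen, was at 17300, 17100 and 5570 RPKM in the mandible and 26200, 24400 and 7990 RPKM in the tibia. Sp7, an osteoblast transcription factor, was at 41.5, 47.1 and 15.9 RPKM in the mandible and 38.5, 41.3 and 13.1 RPKM in the tibia. Haemoglobin and other erythroid markers summed to 2204, 7770 and 20660 RPKM in the mandible and 5597, 13830 and 43020 RPKM in the tibia, highest in dissection 3. Leukocyte markers likewise summed to 736 and 793 RPKM in dissection 3 and to at most 258 RPKM elsewhere. The part of these markers in the shifts of Boc and the other members was not tested.

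**Figure D3:**
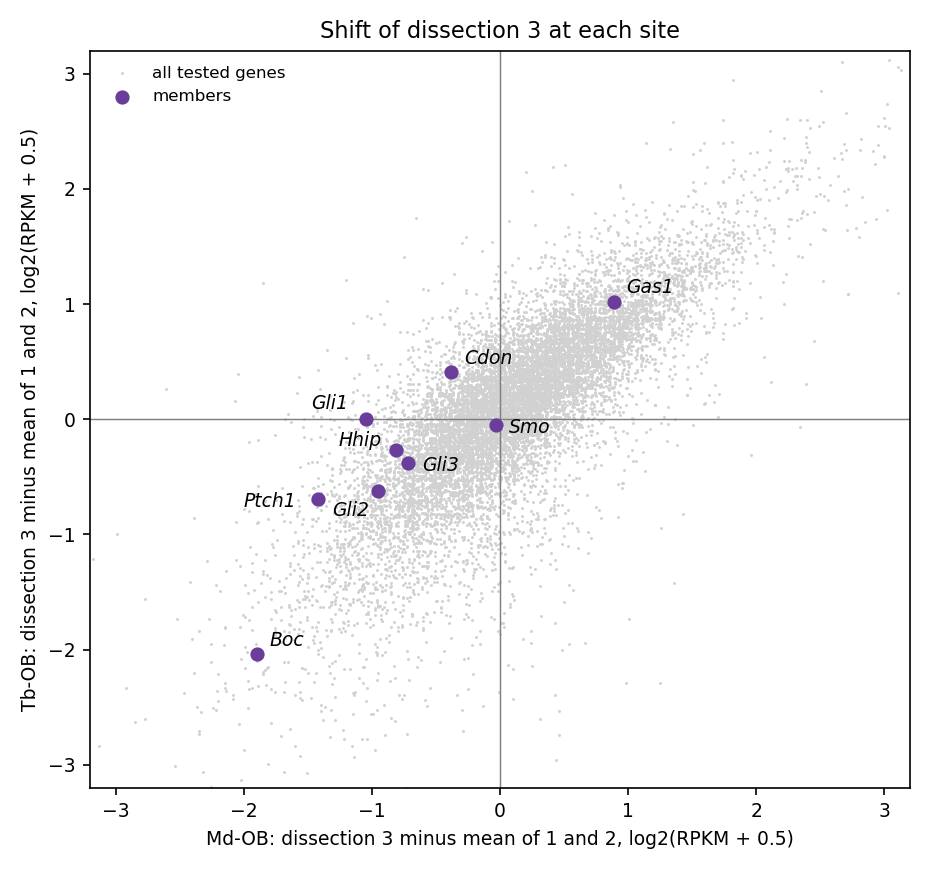
Shift of dissection 3 against the mean of dissections 1 and 2 on the log2(RPKM + 0.5) scale, mandible on the horizontal and tibia on the vertical axis, for all tested genes (grey) and the 9 members (purple). Boc lies far down on both axes, Gas1 is up on both, Gli1 is down in the mandible and at -0.00 in the tibia, and Smo is near 0 on both. Of the tested genes, 41 lie outside the plotted range.

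Ligand transcripts were scarce in these cells. Shh was at most 0.0290 RPKM in a mandible library and 0.0534 RPKM in a tibia library, and Dhh at most 0.0853 and 0.0516 RPKM. Ihh, the ligand of growth plate cartilage, was at 0.172, 0.0804 and 0.253 RPKM in the mandible and was listed at 0 in tibia library 1, with 0.266 and 0.305 RPKM in tibia libraries 2 and 3. None of the 3 ligands reached the filter of a mean of 0.5 RPKM, and the groups overlapped for each.

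Among genes that finish or release the ligand, 1 of 4 tested rose in the mandible on site alone, where 0.87% of all genes were higher. This gene, Scube1, encodes a secreted protein of a family that helps release lipid-bearing Hedgehog. It was at 7.0, 6.14 and 3.23 RPKM in the mandible, against 0.972, 0.926 and 0.435 RPKM in the tibia, with no overlap. The log2 difference was 2.19 (SE 0.33, adjusted p = 0.0385 on site alone and 0.0013 when dissections were blocked). On site alone the call did not hold without a filter (adjusted p = 0.0926), after quantile normalization (adjusted p = 0.0577) or median-of-ratios scaling (adjusted p = 0.0746), when the highest transcript stood for the gene (1.77, adjusted p = 0.192), or when 1 library other than mandible library 3 was left out (adjusted p between 0.0951 and 0.211). Hhat, which adds palmitate to the ligand, was at 0.07, Disp1, which exports it, at 0.06, and Scube2 at 0.60, and none of these log2 differences passed. Disp2 and Scube3 were below the filter, with at most 0.0117 and 0.583 RPKM in the mandible and 0.107 and 0.382 RPKM in the tibia.

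Other surface proteins that bind Hedgehog included glypicans, heparan sulphate proteoglycans of the membrane. Of 5 tested, Gpc5 rose on site alone, where 0.87% of all genes were higher. With the block Gpc3, Gpc5 and Gpc6 were higher, as were 4.44% of all genes. Gpc5 was at 4.20, 3.79 and 1.05 RPKM in the mandible and listed at 0 in all 3 tibia libraries (adjusted p = 0.0487; 0.00834 with the block), and over 15 alternative fits on site alone it passed in 3, with adjusted p between 0.00059 and 0.236. With the block it did not pass without dissection 2 (adjusted p = 0.0506). Gpc5 reached the filter through the mandible alone, and its tibia values had no spread. The size of its log2 difference therefore rests on the pseudocount, at 4.74 with 0.1, 2.66 with 0.5 and 1.89 with 1. Gpc3, known to compete with Ptch1 for ligand, was at 74.1, 84.8 and 74.1 RPKM in the mandible, against 24.2, 35.0 and 14 RPKM in the tibia. It was the most abundant of this list, and its difference of 1.74 (SE 0.34) had adjusted p = 0.102 on site alone and 0.00743 with the block. Gpc6 stood at 1.05 (SE 0.48, adjusted p = 0.624; 0.00778 with the block). Gpc4 at -0.10 did not pass, and Lrp2 was below the filter.

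Between Smo and Gli, none of 31 tested genes passed on site alone, with 3 at an unadjusted p under 0.05, where 8.99% of all genes lay. With the block 2 of the 31 passed, a share near the 6.49% of all genes. They were Evc and Evc2, whose products form a complex at the base of the cilium that relays the signal from Smo. Evc was at 5.87, 4.07 and 2.37 RPKM in the mandible and 2.49, 2.26 and 1.49 RPKM in the tibia, a log2 difference of 0.78 (SE 0.33, adjusted p = 0.553; 0.0417 with the block). For Evc2 the difference was 0.64 (SE 0.34, adjusted p = 0.701; 0.0447 with the block). The fit with the block called 0 of this list without dissection 1 or 2, and likewise 0 after quantile normalization or median-of-ratios scaling. The most abundant members, Gnas (0.10), Prkar1a (0.37) and Spop (0.14), did not pass. The median of the list was 0.15, near the 0.12 of all genes.

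Genes of the primary cilium, the organelle in which Smo acts, had a median log2 difference of 0.33 over 31 tested, of which 28 lay above 0 (90.3%, against 67.8% of all genes). None passed on site alone, with 6 at an unadjusted p under 0.05, all higher, where 6.87% of all genes were higher. With the block 3 of the 31 were higher, against 4.44% of all genes: Ift122 of the transport machinery (0.76, adjusted p = 0.0315) and the transition zone genes B9d2 (0.60, adjusted p = 0.0353) and Tmem67 (0.82, adjusted p = 0.0278). All of these calls were lost without dissection 2, where the fit with the block called 0 of the list. Ift20 at -0.24 and Ift27 at 0.23, the most abundant along with B9d2, did not pass.

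Of genes reported as Hedgehog or Gli targets in other tissues, 1 of 13 tested rose on site alone, where 0.972% of all genes passed. With the block 5 were higher and 1 lower, where 6.49% of all genes passed, and the 6 calls became 5 after either scaling and 3 without dissection 2. The list median was 0.58, against 0.12 over all genes. The list was drawn up with earlier results for some of its genes known, so its direction is no separate evidence. Foxf1, a forkhead factor of the facial and visceral mesenchyme, was at 3.15, 2.87 and 5.35 RPKM in the mandible and 0.101, 0.190 and 0.477 RPKM in the tibia, a log2 difference of 2.49 (SE 0.29, adjusted p = 0.0158). Its tibia values all lay under the filter of 0.5 RPKM, so it was tested through its mandible values. The size of its difference moved with the pseudocount, to 3.54 with 0.1 and 1.91 with 1. The call did not hold without mandible library 1 or 2 (adjusted p = 0.0725 and 0.0611) or tibia library 1 or 2 (adjusted p = 0.0957 and 0.0987).

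With the block alone, Osr2, a zinc finger factor of palate and tooth patterning, was higher by 3.49 (SE 0.63), with adjusted p = 0.0851 on site alone and 0.000375 when blocked. Its level was 26.3, 25.0 and 6.63 RPKM in the mandible and 1.93, 1.32 and 0.282 RPKM in the tibia. Pthlh, which encodes parathyroid hormone-related protein, stood at 1.58 (adjusted p = 0.0934; 0.0148 with the block), Pax9, a factor of tooth development, at 2.33 (adjusted p = 0.0777; 0.0152 with the block) and the Wnt inhibitor gene Sfrp1 at 0.96 (adjusted p = 0.150; 0.0439 with the block). Grem1, a BMP antagonist that Sonic hedgehog maintains in the limb bud, stood at -1.43 (SE 0.61), with adjusted p = 0.573 on site alone and 0.0236 when blocked. The most abundant genes of the list besides Osr2, Ccnd2 (0.00) and Rab34 (0.43), did not pass.

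**Figure D4:**
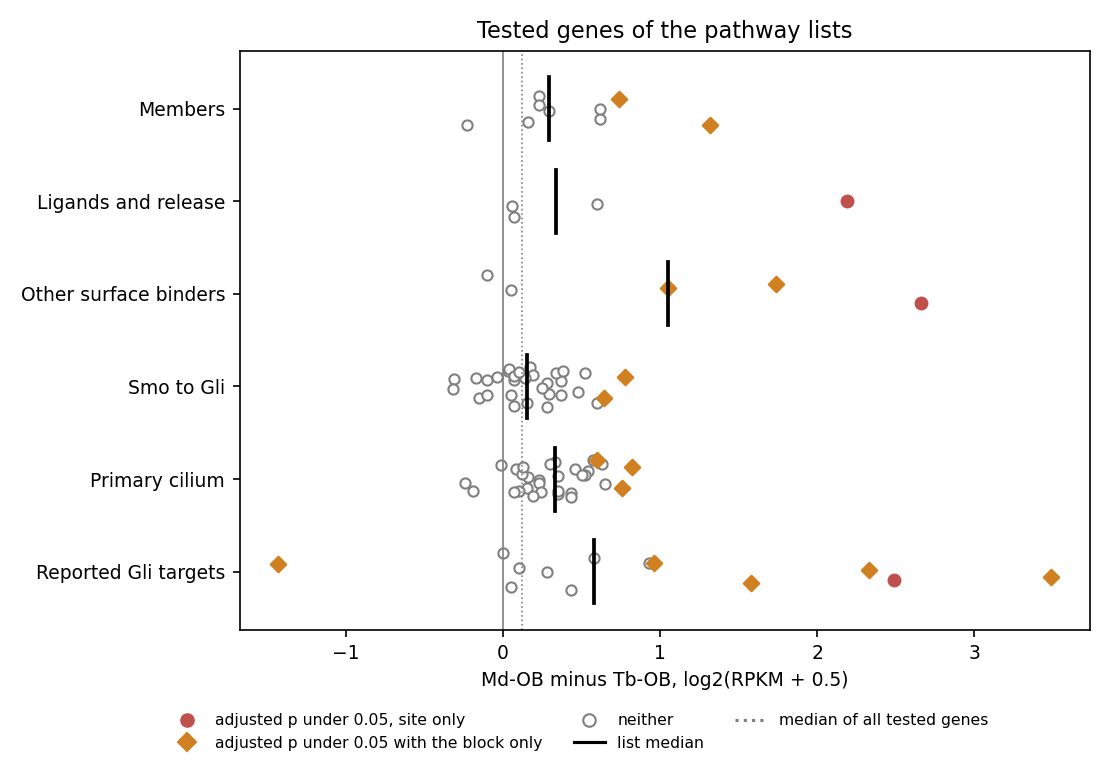
Log2 differences between mandible and tibia of the tested genes in each list, with a bar for the list median, the dotted line for the median of all tested genes and vertical scatter for legibility only. Scube1, Gpc5 and Foxf1 passed on site alone (red circles), other genes including Ptch1 and Gli3 passed with the block only (diamonds), and Grem1 is the 1 called gene below 0.

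Markers of other cell types differed between the sites in the same libraries. Over all genes, 0.972% passed on site alone, 6.49% passed with the block and 8.99% had an unadjusted p under 0.05 on site alone. Ameloblast markers summed to 514 to 2184 RPKM in the mandible and 6.73 to 9.79 RPKM in the tibia (4 of 5 tested passed, all higher). Odontoblast and dental mesenchyme markers summed to 18.8 to 91.6 RPKM in the mandible and 0.937 to 1.71 RPKM in the tibia (3 of 5 passed), and Pax9 belongs to this list too. By tibia mean most genes of this list lay under the filter of 0.5 RPKM, so they were tested through their mandible values. Cartilage markers summed to 142.5 to 354 RPKM in the mandible and 31.5 to 101 RPKM in the tibia (4 of 11 passed). Schwann cell markers summed to 172.6 to 210.9 RPKM in the mandible and 68.4 to 102 RPKM in the tibia (2 of 5 passed), and epithelial markers to 10.7 to 23.5 and 3.88 to 4.66 RPKM (2 of 7 passed). Fibroblast, tendon and periosteal markers overlapped, at 527 to 868 RPKM in the mandible and 342 to 869 RPKM in the tibia (0 of 7 passed by limma on site alone, 2 at an unadjusted p under 0.05, 2 with the block). Osteoblast markers likewise overlapped, at 61020 to 73960 RPKM in the mandible and 63350 to 80800 RPKM in the tibia, with 0 of 10 passing on site alone or at an unadjusted p under 0.05, and Col1a1, Col1a2 (lower) and Ibsp (higher) with the block. Osteoclast markers summed to 674.5 to 817.1 RPKM in the mandible and 582.1 to 632.2 RPKM in the tibia, with 0 of 4 passing in either limma fit and 0 at an unadjusted p under 0.05. On the other side, endothelial markers summed to 25.3 to 42.5 RPKM in the mandible and 55.1 to 96.0 RPKM in the tibia, with 5 of 5 lower with the block. Stromal markers summed to 39.5 to 82.0 and 47.0 to 225.6 RPKM (3 of 4 lower with the block), and hypertrophic cartilage markers to 0.643 to 1.64 and 2.28 to 7.64 RPKM (0 of 1 tested passed by limma, 1 at an unadjusted p under 0.05, lower). Erythroid markers were lower in the mandible with the block in 7 of 7 and leukocyte markers in 1 of 5.

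Within the mandible the ameloblast markers were lowest in library 1 and Ptch1 was highest there. Amelx, the main enamel matrix gene, was at 322, 984 and 1710 RPKM in mandible libraries 1, 2 and 3, where Ptch1 was at 6.55, 5.55 and 1.95 RPKM. The dental mesenchyme gene Lhx8 was at 10.5, 11.9 and 4.66 RPKM in the mandible and at most 0.113 RPKM in the tibia. Like Ptch1 and Gli1, it was lowest of the mandible in library 3. Barx1, of the same marker list, did not fall there, with a mandible shift of 0.02 (log2) in dissection 3. The part of these tooth markers in the site difference of Ptch1 and Gli3 was not tested.

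By the root mean square difference of centred log2 values over the 6 libraries, the genes most like Ptch1 were Map1b (0.119), Lrrc15 (0.127) and Ccdc106 (0.134). Those most like Gli1 were Tmem8b (0.0907), Phlda2 (0.111) and Ankrd44 (0.123), and those most like Hhip were Cybrd1 (0.0761), Tsc22d1 (0.0888) and Serinc5 (0.112). Among the members, Gli3 was nearest to Gli1 (0.179), to Hhip (0.278) and to Ptch1 (0.419). Boc was far from all other members, at 0.604 (Gli2) to 1.4 (Gas1), and nearest of all tested genes to Lamb2 (0.0801), with Col1a1 at 0.225 and Sp7 at 0.306, a comparison chosen after its values were seen. These distances describe 6 libraries that share 3 dissections.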

How the data were processed

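Per the file headers, the authors deposited RPKM per RefSeq transcript, computed with Partek 6.15.1207 on mm10. The submitters' processing notes name CASAVA 1.8.2, TopHat2 2.1.0, Partek 6.6 and mm10. No source used here gives the strand setting, so reads from genes overlapping on opposite strands cannot be told apart. In GENCODE M21, exons of Gli1 (Arhgap9, by 62 bases, and Gm47200), Gas1, Gli3 and Hhip overlap a gene on the other strand.

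Transcripts were summed per symbol. Genes with a mean of at least 0.5 RPKM over the 6 libraries (12752, all 9 members among them) entered limma 3.58.1 (R 4.3.3) as log2(RPKM + 0.5) values (lmFit, eBayes with trend, two-sided, Benjamini-Hochberg adjustment over all genes). This scale understates changes of low genes. SE is the moderated standard error, and intervals are at 95%. The fits on site alone and with the block were tried on data simulated with the dissection shifts of these libraries. Such data take the pairing as given and cannot test it. Figures used matplotlib 3.10.9 in Python 3.11.15.

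The model held the site only. The labels give a site and a number, and libraries of 1 number were taken as 1 dissection. Deviations from site means correlated at 0.59, 0.66 and 0.80 for the numbers 1, 2 and 3, and at 0.55 and 0.52 between the numbers 1 and 2. The pairing therefore rests on the numbers in the labels, since the correlations set dissection 3 apart but hardly tell 1 from 2. For this reason the block was a second fit. Each preparation pooled mice, so p-values measure the spread between pools. Read totals came from 519 genes with 1 transcript and a RefSeq gene span, taken as transcript length, under 1300 bases. Each total was chosen to bring the most values to whole reads. That 64.6% to 80.2% of low values were whole reads to within 0.05 is thus no separate check. The totals spanned 49.2 M to 58.1 M reads. They cover counting error only, and amplification adds to it.

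Members and gene lists were chosen with earlier results of these data known. Named from the lists were genes passing either fit, all ligand genes and the 3 most abundant per list. The 3 genes most like Gli1, Ptch1 and Hhip were taken by root mean square difference. Of the listed genes, Nkx3-2 was not in the table, and Cnmd was found as Lect1. The values of 1 listed gene are not reported here. Alternatives were other pseudocounts, filters, scalings and transcript choices, eBayes without trend, the block, and leaving out libraries.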

Additional observations from a re-analysis of the deposited data

How the results depend on the processing

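Of 221 member differences under 25 alternatives (8 of them, all with the block, chosen after seeing the data), 198 kept direction and side of the threshold, 17 passed where the fit on site alone had not, and 6 changed sign. The 17 were Ptch1 (9), Gli3 (6) and Gli1 (2), each in a fit with the block or without dissection 3. The sign changes were Gas1 (-0.07, up to 0.57 without tibia library 3) and Boc (0.40) without mandible library 3, Boc without tibia library 1 or 2 (0.09 and 0.12, down to -0.91 without tibia library 3), and Gli2 without mandible library 2 (-0.01) or tibia library 3 (-0.04, up to 0.48 without mandible library 3). Hhip and Cdon fell below the filter in some fits. Passing members numbered 0 on site alone, 2 with the replicate block (also with either other pseudocount or no trend), 1 with the block and quantile normalization or median-of-ratios scaling, 3 without both libraries of dissection 3 with or without the block, 1 with the block without dissection 1 and 0 without dissection 2, and 0 without any 1 library. Passing ligand genes were 1 in the main fit and the block, and 0 without a filter (with or without the block), after either scaling without the block and with the highest transcript, and 0 to 1 over left-out libraries. Passing surface binders were 1, then 3 with the block (also with either scaling, either other pseudocount, no trend, or without dissection 1 or 3) and 1 with it without dissection 2, 3 without dissection 3, 0 without a filter with or without the block, and 0 with a pseudocount of 1, a filter of 1, either scaling, the highest transcript or no trend, and 0 to 1 over left-out libraries. Transduction genes were 0, and 2 with the block, also with other pseudocounts, no trend or without dissection 3, but 0 with the block and either scaling, no filter, or without dissection 1 or 2. Cilium genes were 0, then 3 with the block and with either other pseudocount, 2 with block and either scaling or no trend, 3 without dissection 3, and with the block 1 without dissection 1, 0 without dissection 2 or without a filter, and 6 without dissection 3. Reported targets were 1, then 6 with the block, with either other pseudocount or no trend, 5 with the block and either scaling or without dissection 1, 3 without dissection 2, 7 without dissection 3, 0 with the block and no filter, 6 on site alone without dissection 3, and 0 to 4 over left-out libraries. With the block and no filter no gene of the table passed, with 3871 at an unadjusted p under 0.05. The cause was not tested.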
